A study of Mus musculus with 93 samples.

Results

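The livers of DBA/2J mice fed a western diet (WD) were compared with those of DBA/2J mice fed a control diet (CD), and every liver labelled DBA/2J was used, which gave 13 of the 93 mice profiled. The study fed WD or CD to male mice of 7 inbred strains at thermoneutrality and measured liver RNA by sequencing. The DBA/2J WD group held 7 mice and the DBA/2J CD group 6 mice, in 2 cohorts: cohort 4 gave 3 CD and 4 WD mice, and cohort 5 gave 3 CD and 3 WD mice. WD supplied 40% of its energy as fat, 43% as carbohydrate and 17% as protein, and CD supplied 10%, 73% and 17%. All mice, CD mice included, were moved to 30°C at 6 weeks of age, received the diets from 7 weeks of age for 17 weeks, and were killed at 24 weeks after a fast of 4 h. The labels name no transgene and no drug. The 80 mice of the other 6 strains, among them 16 C57BL/6J mice, were used where the response of DBA/2J was compared with that of other backgrounds.

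The fat and cholesterol of the diet reach the liver along several routes. Cholesterol that enters hepatocytes lowers the activity of SREBP2, the transcription factor that drives the enzymes of cholesterol synthesis, and can be turned into bile acids or exported into bile. Fatty acids are stored in lipid droplets, burned in mitochondria and peroxisomes or secreted in lipoproteins. In steatohepatitis, leukocytes and matrix-producing stellate cells add their transcripts to those of hepatocytes.

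Each DBA/2J library had 43304796 to 47811116 reads on genes, and no pair of libraries was alike within counting noise. The sum of 12 hepatocyte markers, albumin among them, was 122200 to 146100 CPM (a read count scaled to the TMM-adjusted depth of its library) on CD and 106200 to 135200 CPM on WD. Transcripts known to be affected in this strain were in accord with the labels: Gpnmb, truncated in DBA/2J, reached at most 0.143 CPM, and Hc, the complement gene disrupted in DBA/2J and A/J, was at 265.5 to 424 CPM in DBA/2J and 144 to 241 CPM in A/J against 507 CPM or more in every mouse of the other 5 strains.

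The libraries of 2 mice, CD replicate 2 and WD replicate 2, carried transcripts of pancreatic acinar cells. The sum of 9 acinar markers other than Cela1, which liver expresses, was 1248 CPM in CD replicate 2 and 51.1 CPM in WD replicate 2, against 0.326 to 1.45 CPM in the other 11 mice. The part of this material in the results was not tested, and counts are given below also without both mice. The plot of summed markers shows CD replicate 2 apart from the rest.

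Sinusoidal endothelial markers were lower on WD. Their sum was 485 to 546 CPM on CD and 360.3 to 473 CPM on WD, so the diets did not overlap. Of the 11 markers, 6 were downregulated (54.5%, and 1 to 7 markers over the other fits described below), led by Oit3 (log2 fold change -0.50 ± 0.10, adjusted p = 0.000196), Kdr (-0.41 ± 0.11, adjusted p = 0.0034) and Clec4g (-0.39 ± 0.09, adjusted p = 0.00133). Among all genes tested, 7.77% were downregulated and 10.2% upregulated. The summed stellate cell markers were 604 to 731 CPM on CD and 437 to 611 CPM on WD, with overlap. Of the 11 markers, 2 fell (18.2%, with 1 down without both mice and 0 to 5 over the other fits). Among them was Ecm1, a matrix glycoprotein (-0.44 ± 0.13, adjusted p = 0.0119), whose call was lost without WD replicate 6 (adjusted p = 0.0511). In bulk liver, fewer cells of a type and less RNA per cell cannot be told apart. No marker of Kupffer cells (12), T and NK cells (13) or B and plasma cells (9) passed the threshold, and their sums overlapped between diets. Of the 9 neutrophil markers, Ngp and Camp passed the threshold at levels of at most 2.42 CPM, Camp not without any one of CD replicates 2 or 3 or WD replicates 3 or 5 (adjusted p 0.0596 to 0.0711), while Ly6g had a median of 0 CPM on both diets. The red blood cell markers summed to 373 CPM in WD replicate 2 and to 139 to 224 CPM in the other 12 mice. Gut epithelial markers summed to 67 to 153 CPM on CD and 131 to 204 CPM on WD, carried by Fabp2, a fatty acid binding protein that liver also expresses, while Cdx1 and Cdx2 had medians of 0.

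**Figure D1:**
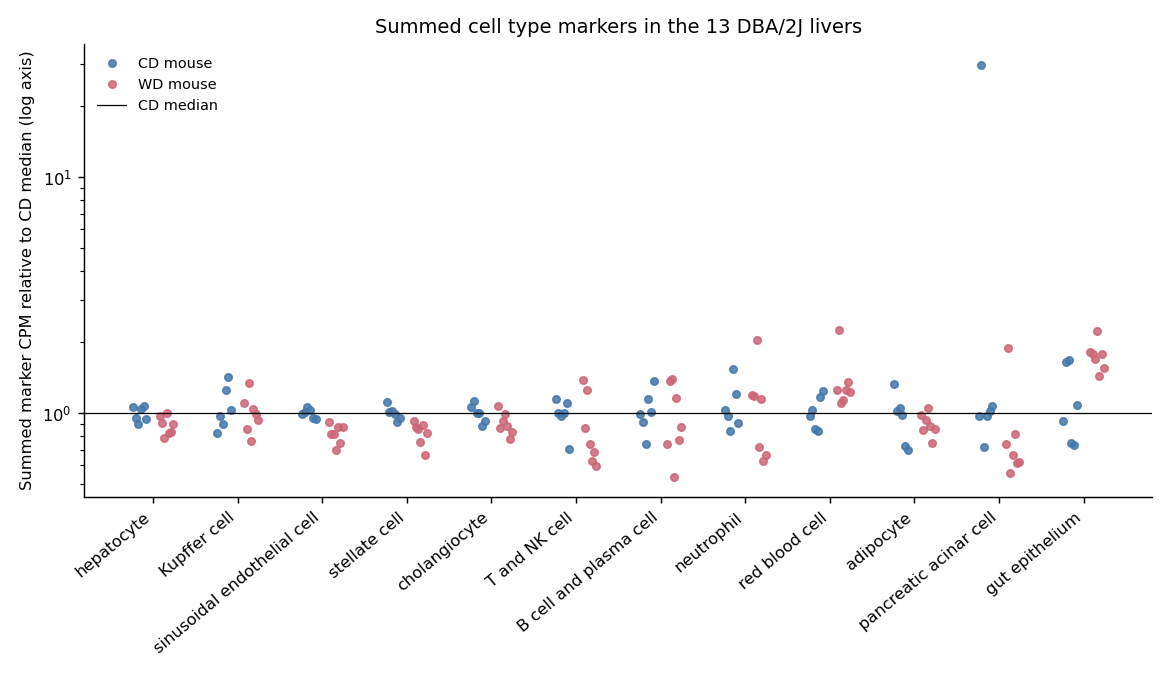
Summed CPM of the markers of 12 cell types in each of the 13 DBA/2J livers, divided by the median of the 6 CD mice, on a log axis. Points are mice (blue, CD; red, WD). One CD mouse, with 1407 CPM of acinar markers, stands far above the rest, and the sinusoidal endothelial sums of the WD mice lie below those of all CD mice.

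To find which genes responded to WD in DBA/2J liver, 19110 genes were tested with limma-voom in one fit of all 93 mice. At an adjusted p below 0.05, 1958 genes were upregulated (10.2% of the genes tested) and 1484 were downregulated (7.77%), and the median log2 fold change (WD over CD) of all genes was 0.00. Values after ± are standard errors of the log2 fold change. A fold of at least 2 was reached by 514 of the upregulated and 182 of the downregulated genes. The diets did not overlap for 894 genes higher on WD (4.68%) and 497 genes lower on WD (2.6%). Without both mice that carried pancreatic transcripts, 1581 genes were up and 1149 were down. Within cohort 4 alone, 1258 genes were up and 943 down, and within cohort 5 alone 787 and 468; of the 3442 differentially expressed genes (DEGs), 3435 had the same sign in both cohorts, and the diet effect differed between the cohorts for 5 genes (1225 at an unadjusted p below 0.05). The first principal component of the 13 livers held 24.3% of the variance, and all CD mice had negative and all WD mice positive scores on it. The 10.2% up and 7.77% down of all genes are the background against which the counts of each list below stand, and a range over the other fits covers the alternative tests, normalizations, filters, covariates and sample weights, the 13 DBA/2J mice fitted alone, the single cohorts and every fit with mice left out.

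**Figure D2:**
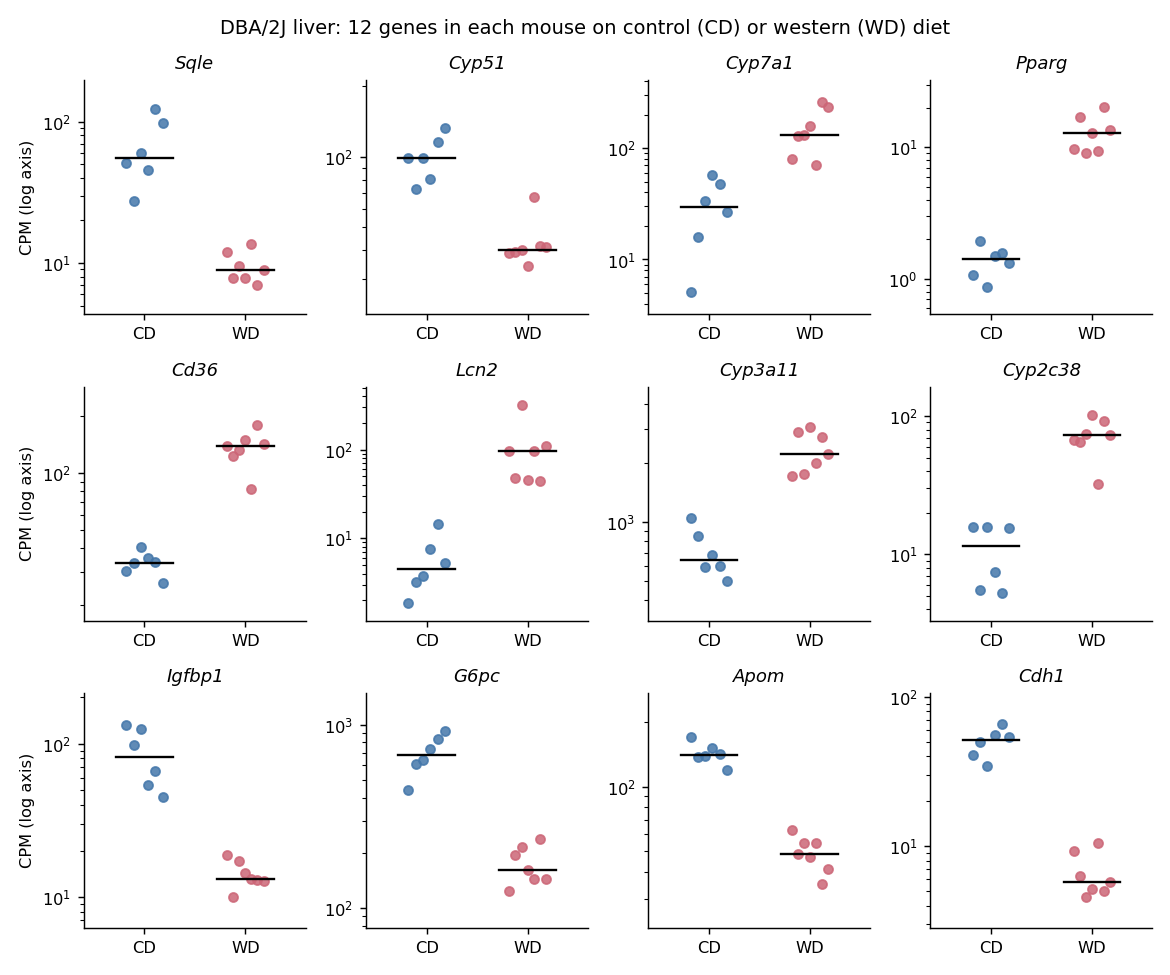
Expression of 12 genes in each DBA/2J mouse, in CPM on a log axis (blue, 6 CD mice; red, 7 WD mice; bar, median of the diet). In all 12 genes the CD and WD mice are separate: Sqle, Cyp51, Igfbp1, G6pc, Apom and Cdh1 are lower on WD, and Cyp7a1, Pparg, Cd36, Lcn2, Cyp3a11 and Cyp2c38 are higher.

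The enzymes of cholesterol synthesis were downregulated where they passed the threshold. Of 20 enzymes, 10 were downregulated and none was upregulated, with a median log2 fold change of -0.62, against 7.77% downregulated among all genes; the number was 8 to 12 when single mice were left out and 6 to 13 over the other fits. Sqle (squalene epoxidase, which commits squalene to sterols; ENSMUSG00000022351, chromosome 15, 59315077 to 59331192, plus strand, GRCm38) was at 27.4 to 124 CPM (median 55.3) in the CD mice and 6.93 to 13.7 CPM (median 8.99) in the WD mice. These values did not overlap, and Sqle fell by the largest amount of the list (log2 fold change -2.68 ± 0.35, adjusted p = 5.30e-09). Idi1, the isomerase that makes the isoprenoid building block of sterols, was at 10.2 to 30.5 CPM (median 20.3) on CD and 5.97 to 12 CPM (median 6.67) on WD and fell (-1.39 ± 0.30, adjusted p = 0.000371), with 1 WD mouse inside the CD range. Cyp51, the lanosterol demethylase, was at 72.8 to 133 CPM (median 99) on CD and 34.1 to 67.2 CPM (median 40.2) on WD, without overlap (-1.21 ± 0.21, adjusted p = 7.24e-06). Tm7sf2, a sterol reductase, was separate as well, at 89.8 to 122 CPM (median 103) on CD against 40.8 to 63.6 CPM (median 52.5) on WD (-1.01 ± 0.15, adjusted p = 2.73e-07). Nsdhl (-0.95 ± 0.23, adjusted p = 0.00131), Pmvk (-0.85 ± 0.18, adjusted p = 0.00019), Hsd17b7 (-0.76 ± 0.20, adjusted p = 0.00388) and Sc5d (-0.52 ± 0.15, adjusted p = 0.00843) fell by less. The log2 fold change of Sc5d was -0.21 in cohort 4 and -0.85 in cohort 5. Dhcr7 and Lss also passed the threshold, but the call of Dhcr7 was lost without CD replicate 5 (adjusted p = 0.0532), and that of Lss without any one of CD replicates 1, 5 or 6 or WD replicates 1, 3, 4, 6 or 7 (adjusted p 0.0529 to 0.174). Hmgcs1, a synthase early in the pathway, was at 38.6 to 84 CPM (median 58.9) on CD and 30.4 to 44.3 CPM (median 39.1) on WD and did not pass (-0.60 ± 0.26, adjusted p = 0.104).

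The promoters of the enzymes were inspected for the motifs through which SREBP2 and its partner NF-Y bind, because 10 of the 20 fell. The counts below cover all listed enzymes with a promoter sequence, whether or not they fell. RefSeq promoter sequences (GRCm38.p6, 250 bases before to 50 after the start) were at hand for 15 of the 20 enzymes. The CCAAT box, searched as CCAAT on both strands, was present in 14 of the 15 (93.3%) and in 41.1% of all 27025 genes with a promoter. Its share in the other lists ran from 8.70% (acute phase genes) to 87.5% (MHC class II genes, none of which passed the threshold). It was 85.7% for genes of ER chaperones and the unfolded protein response, none of which fell. A high share was therefore not particular to the list of cholesterol synthesis. The sterol regulatory element, searched as TCACNCCAC on both strands, was present in 1 of the 15, Hmgcs1, and in 1.44% of all genes. A match is a description of these letters and not of binding. The 160 bases before the start are shown 5′ to 3′ on the strand of the gene for 5 enzymes that fell and for Hmgcs1, with CCAAT (or ATTGG, its reverse complement) and the sterol regulatory element in capitals.
Idi1 (chr13:8885446-8885605, plus strand): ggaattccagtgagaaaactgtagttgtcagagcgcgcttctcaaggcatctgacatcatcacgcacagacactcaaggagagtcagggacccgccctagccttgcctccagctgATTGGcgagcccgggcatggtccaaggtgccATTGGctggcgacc
Cyp51 (chr5:4104698-4104857, minus strand): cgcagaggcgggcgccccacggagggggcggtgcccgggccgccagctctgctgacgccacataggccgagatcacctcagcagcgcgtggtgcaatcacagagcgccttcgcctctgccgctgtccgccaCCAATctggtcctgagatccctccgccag
Nsdhl (chrX:72918361-72918520, plus strand): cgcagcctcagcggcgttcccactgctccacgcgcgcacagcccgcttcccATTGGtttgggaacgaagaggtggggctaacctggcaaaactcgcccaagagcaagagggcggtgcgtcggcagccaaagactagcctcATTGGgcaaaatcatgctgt
Hsd17b7 (chr1:169969206-169969365, minus strand): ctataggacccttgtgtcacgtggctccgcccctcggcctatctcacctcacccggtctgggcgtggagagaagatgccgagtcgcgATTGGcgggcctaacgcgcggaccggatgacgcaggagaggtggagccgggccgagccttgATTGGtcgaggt
Tm7sf2 (chr19:6067851-6068010, minus strand): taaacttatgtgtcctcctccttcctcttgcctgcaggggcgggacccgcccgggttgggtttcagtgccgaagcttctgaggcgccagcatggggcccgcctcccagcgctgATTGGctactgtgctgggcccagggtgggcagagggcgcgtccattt
Hmgcs1 (chr13:119690191-119690350, plus strand): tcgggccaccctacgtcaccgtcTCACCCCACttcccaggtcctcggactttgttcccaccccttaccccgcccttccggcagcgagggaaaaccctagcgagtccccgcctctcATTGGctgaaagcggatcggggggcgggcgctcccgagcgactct
Idi1, Nsdhl and Hsd17b7 had 2 CCAAT boxes each in this window, and the others 1. Among these 6 windows, that of Hmgcs1 held both motifs.

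Among 13 genes of sterol sensing and uptake, 5 were downregulated and none was upregulated (median -0.19; 38.5% against 7.77% of all genes, and 2 to 6 genes over the other fits). Scap, the escort of SREBP proteins, was separate between diets, at 112 to 144 CPM (median 122) on CD and 77 to 101 CPM (median 82) on WD (log2 fold change -0.53 ± 0.11, adjusted p = 0.000218). Insig2 (-0.71 ± 0.21, adjusted p = 0.0113), an anchor that retains SREBP proteins in the endoplasmic reticulum, and Srebf2 (-0.36 ± 0.11, adjusted p = 0.011), which encodes SREBP2, fell too.

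Cyp7a1, the rate-limiting enzyme of bile acid synthesis from cholesterol (ENSMUSG00000028240, chromosome 4, 6265612 to 6275633, minus strand), was upregulated. It was at 5.15 to 57.1 CPM (median 29.8) in the CD mice and 70.9 to 257 CPM (median 132) in the WD mice, without overlap (log2 fold change 2.50 ± 0.56, adjusted p = 0.000513). The log2 fold change was 3.10 in cohort 4 and 1.95 in cohort 5. Of 23 tested genes of bile acid synthesis and transport, 3 rose and 1 fell (median -0.11), shares close to those of all genes. Abcc3, a basolateral exporter, was at 126 to 209 CPM (median 158) on CD and 224 to 307 CPM (median 261) on WD (0.75 ± 0.18, adjusted p = 0.00134). Abcb11, the bile salt export pump of the canalicular membrane, moved the other way, from 503 to 737 CPM (median 605) to 351 to 482 CPM (median 441) (-0.52 ± 0.12, adjusted p = 0.000826). Both were separate between diets. Cyp8b1, which sets the proportion of cholic acid, did not pass (-0.48 ± 0.28, adjusted p = 0.257). Of 12 genes of sterol efflux and esterification, 2 rose and 1 fell. Abcg5, a subunit of the biliary sterol exporter, rose (0.48 ± 0.14, adjusted p = 0.00699), whereas Abcg8, its partner subunit (0.19 ± 0.16, adjusted p = 0.464), Abca1 (0.01 ± 0.12, adjusted p = 0.985) and Soat2, which esterifies cholesterol (-0.01 ± 0.10, adjusted p = 0.972), did not pass. Abcg5 and Abcg8 overlap on opposite strands, and the strand setting of the read counting was not given in the sources used here. The same holds for Cyp51 with Akap9, Plin4 with Hdgfl2, Srebf1 with Rai1, Acss2 with Gss, Bmp6 with Txndc5, Dbp with Sphk2, Nr1d1 with Thra, Ccne2 with Ints8 and Smpd3 with Prmt7.

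Several genes of lipid storage linked to PPARγ were strongly upregulated. Of 20 lipid droplet genes and targets of Pparg, 6 were upregulated and none was downregulated (30% against 10.2% of all genes; median 0.20), and 5 of the 6 had no overlap between diets. Pparg itself (ENSMUSG00000000440, chromosome 6, 115360951 to 115490399, plus strand), the nuclear receptor of adipocyte differentiation, was at 0.862 to 1.95 CPM (median 1.41) on CD and 9.03 to 20.4 CPM (median 12.8) on WD (log2 fold change 3.22 ± 0.43, adjusted p = 9.67e-09). Cd36, a fatty acid translocase, was at 26.3 to 40.6 CPM (median 33.5) on CD and 82.1 to 179 CPM (median 139) on WD (2.00 ± 0.22, adjusted p = 2.71e-11). Fitm1, which partitions triglyceride into droplets, was at 0.56 to 2.72 CPM (median 1.48) on CD and 14.3 to 21.2 CPM (median 16.6) on WD (3.79 ± 0.50, adjusted p = 1.17e-08). All 7 WD mice were above all 6 CD mice for these 3 genes. Mogat1, an acyltransferase of triglyceride synthesis, had at most 7 reads in any CD mouse and was at 2.27 to 6.43 CPM (median 4.21) on WD (5.99 ± 0.85, adjusted p = 6.47e-08). Cidea, a droplet fusion protein, had at most 2 reads in any CD mouse and was at 0.8 to 11.7 CPM (median 4.41) on WD (6.89 ± 1.39, adjusted p = 0.000128); fitted fold changes from so few reads depend on the prior count. Plin4 (2.10 ± 0.52, adjusted p = 0.00199) was the sixth. Cidec, another fusion protein, was at 2.2 to 8.4 CPM (median 2.7) on CD and 4.85 to 23.5 CPM (median 9.23) on WD and did not pass (1.44 ± 0.65, adjusted p = 0.118), and Plin2, the main droplet coat protein of liver, was at 259 to 1688 CPM (median 681) on CD and 379 to 575 CPM (median 417) on WD (-0.70 ± 0.30, adjusted p = 0.104). Adipocyte markers summed to 35.7 to 67.2 CPM on CD and 38.1 to 53.6 CPM on WD, most of it Adrb3, and the adipocyte hormones Adipoq and Lep had medians below 0.1 CPM on both diets.

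Of 22 genes of fatty acid synthesis, 2 were upregulated and 1 was downregulated (9.09% and 4.55%, against 10.2% and 7.77% of all genes), shares close to the background, and without both mice with pancreatic transcripts none rose. Over the other fits 0 to 4 rose and 0 to 5 fell. Srebf1, which encodes SREBP1, was at 206 to 557 CPM (median 316) on CD and 415 to 627 CPM (median 528) on WD (log2 fold change 0.73 ± 0.23, adjusted p = 0.0176), and Scd1, the stearoyl-CoA desaturase, was at 9038 to 21448 CPM (median 11603) on CD and 20065 to 26242 CPM (median 23365) on WD (0.83 ± 0.30, adjusted p = 0.0415). The call of Srebf1 was lost without any one of CD replicates 2 or 3 (adjusted p 0.0632 to 0.0748), and that of Scd1 without any one of CD replicates 1, 2, 3 or 4 or WD replicates 2, 4, 5, 6 or 7 (adjusted p 0.0563 to 0.112). Acss2, an acetyl-CoA synthetase under SREBP control, fell (-0.89 ± 0.25, adjusted p = 0.0077). Fasn, fatty acid synthase, was at 281 to 1658 CPM (median 640.1) on CD and 329 to 591 CPM (median 425) on WD, with the wider spread on CD (-0.62 ± 0.30, adjusted p = 0.162). Of 33 genes of fatty acid oxidation and ketogenesis, 6 were upregulated and 1 was downregulated (18.2% and 3.03%, against 10.2% and 7.77%; median 0.05), and over the other fits 1 to 8 rose and 0 to 6 fell. Vnn1, a pantetheinase and PPARα target, was at 15 to 136 CPM (median 27.6) on CD and 81.5 to 147 CPM (median 121) on WD (1.52 ± 0.36, adjusted p = 0.0012). Acadm, medium-chain acyl-CoA dehydrogenase, rose (0.46 ± 0.11, adjusted p = 0.000979). Cyp4a32, a fatty acid hydroxylase with close paralogs that may share reads, fell from 79.1 to 814 CPM (median 304) to 69.8 to 177 CPM (median 91.6) (-1.55 ± 0.37, adjusted p = 0.00108). The log2 fold change of Cyp4a32 was -2.67 in cohort 4 and -0.45 in cohort 5, and that of Vnn1 0.68 and 2.32. Ppara (0.18 ± 0.24, adjusted p = 0.697) and Cpt1a (0.06 ± 0.19, adjusted p = 0.889) did not pass.

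Apolipoproteins moved in both directions. Of 18 genes of lipoproteins and VLDL assembly, 4 rose and 5 fell (22.2% and 27.8%, against 10.2% and 7.77% of all genes), and without both mice with pancreatic transcripts 4 rose and 2 fell. Apom, the sphingosine-1-phosphate carrier of HDL (ENSMUSG00000024391, chromosome 17, 35128997 to 35132050, minus strand), was at 119 to 170 CPM (median 140.1) on CD and 35.1 to 62.8 CPM (median 48.7) on WD, without overlap (log2 fold change -1.56 ± 0.14, adjusted p = 5.06e-15). Apoa1, the main protein of HDL, was separate as well, at 9537 to 12436 CPM (median 11919) on CD and 7335 to 9527 CPM (median 8303) on WD (-0.47 ± 0.10, adjusted p = 0.00016). Apoe was higher in every WD mouse than in any CD mouse, at 11479 to 13592 CPM (median 12372) on CD and 15111 to 19630 CPM (median 15986) on WD (0.42 ± 0.07, adjusted p = 1.53e-06). Apoa4, which follows hepatic fat content, rose (1.38 ± 0.36, adjusted p = 0.0034), and so did Saa4 (1.05 ± 0.29, adjusted p = 0.00623). Apob (0.13 ± 0.08, adjusted p = 0.282) and Mttp (-0.21 ± 0.10, adjusted p = 0.132), needed for VLDL secretion, did not pass.

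Igfbp1 and G6pc, which insulin represses, were among the genes that fell most. Among 19 genes of gluconeogenesis and the insulin response, 4 were downregulated and 2 were upregulated (21.1% and 10.5%, against 7.77% and 10.2% of all genes; median -0.29), so that the share upregulated was close to the background. Over the other fits 2 to 10 fell, the most with the 13 DBA/2J mice fitted alone. Igfbp1, a secreted IGF-binding protein repressed by insulin, was at 44.8 to 133 CPM (median 82) on CD and 10 to 18.6 CPM (median 13.1) on WD (log2 fold change -2.53 ± 0.54, adjusted p = 0.000321). G6pc, glucose-6-phosphatase, was at 439.7 to 927 CPM (median 687) on CD and 125 to 238 CPM (median 162) on WD (-1.99 ± 0.38, adjusted p = 5.10e-05). Neither gene overlapped between diets. Irs1, an insulin receptor substrate, fell (-0.76 ± 0.23, adjusted p = 0.0123), whereas Pcx, pyruvate carboxylase, rose (0.41 ± 0.09, adjusted p = 0.000403). Pck1, the other classical gluconeogenic enzyme, was at 1408 to 3020 CPM (median 1757) on CD and 833 to 1678 CPM (median 1188) on WD and did not pass (-0.64 ± 0.31, adjusted p = 0.162). Igfbp2, of the same family as Igfbp1, was at 250.1 to 670.2 CPM (median 456) on CD and 112 to 192 CPM (median 138) on WD (-1.57 ± 0.21, adjusted p = 9.16e-09). Igf1 (0.10 ± 0.12, adjusted p = 0.644) and Ghr (0.13 ± 0.10, adjusted p = 0.399) did not pass.

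Of 28 hepatokines, factors that hepatocytes secrete, 10 fell and 4 rose (35.7% and 14.3%, against 7.77% and 10.2% of all genes; 9 and 4 without both mice). Inhba, the activin A subunit, was at 22.6 to 66.5 CPM (median 34.2) on CD and 10.1 to 18 CPM (median 14.7) on WD (log2 fold change -1.43 ± 0.28, adjusted p = 9.22e-05). Enho, which encodes adropin, was at 26.6 to 47 CPM (median 35.9) on CD and 7.93 to 18.1 CPM (median 15.5) on WD (-1.37 ± 0.25, adjusted p = 2.36e-05). Both were separate between diets. Enho overlaps Dnaic1, a ciliary dynein chain, on the opposite strand, and Dnaic1 also fell (-3.16 ± 0.34, adjusted p = 1.38e-11), so the reads of the pair cannot be told apart without strand. Lect2, a secreted chemotactic factor, was at 70.1 to 98.5 CPM (median 75.4) on CD and 109 to 137 CPM (median 119) on WD and rose without overlap (0.58 ± 0.14, adjusted p = 0.000994). Fgf21, a hormone of fasting and amino acid stress, was at 7.78 to 27.6 CPM (median 18.1) on CD and 5.39 to 10.9 CPM (median 7.65) on WD and did not pass (-1.10 ± 0.44, adjusted p = 0.069), nor did Gdf15 (1.15 ± 0.47, adjusted p = 0.0775).

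Of the 15 iron genes, 4 rose and 4 fell (26.7% and 26.7%, against 10.2% and 7.77% of all genes), and 3 rose and 2 fell without both mice with pancreatic transcripts, with 2 to 6 down over the other fits. Hamp2, a paralog of hepcidin, was at 103 to 212 CPM (median 147) on CD and 31.7 to 75 CPM (median 39.2) on WD (log2 fold change -1.81 ± 0.31, adjusted p = 4.98e-06). Bmp6, the endothelial ligand that raises hepcidin, was at 4.19 to 5.8 CPM (median 5.21) on CD and 2.48 to 3.83 CPM (median 2.94) on WD (-0.73 ± 0.16, adjusted p = 0.000388). Both were separate between diets. The sinusoidal endothelial markers fell beside Bmp6, with 6 of 11 down (54.5% against 7.77% of all genes, and 1 to 7 markers over the other fits). Their sums were 485 to 546 CPM on CD and 360.3 to 473 CPM on WD, and their part in the fall of Bmp6 was not tested. Hamp, hepcidin itself, was at 151 to 313 CPM (median 229) on CD and 68.2 to 160.1 CPM (median 95.5) on WD (-1.19 ± 0.43, adjusted p = 0.0431), and its call was lost without any one of CD replicates 1, 4, 5 or 6 or WD replicates 1, 2, 3, 4 or 7 (adjusted p 0.057 to 0.0893). Hamp and Hamp2 are similar in sequence and may share reads.

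Acute phase genes, which hepatocytes express in inflammation, rose where they passed the threshold. Of 28 members, 9 were upregulated and none was downregulated (32.1% against 10.2% of all genes; 8 without both mice with pancreatic transcripts, and 7 or more without any single mouse). Lcn2, the siderophore-binding lipocalin (ENSMUSG00000026822, chromosome 2, 32384633 to 32388252, minus strand), was at 1.86 to 14.6 CPM (median 4.49) on CD and 44.4 to 321 CPM (median 95.8) on WD (log2 fold change 4.12 ± 0.66, adjusted p = 1.51e-06). Saa1, serum amyloid A, was at 10 to 117 CPM (median 45.7) on CD and 163 to 787 CPM (median 232) on WD (2.96 ± 0.73, adjusted p = 0.00189). Orm2, an orosomucoid, was at 4.7 to 20.5 CPM (median 9.53) on CD and 29.9 to 149 CPM (median 49.6) on WD (2.48 ± 0.51, adjusted p = 0.000194). In these 3 genes every WD mouse was above every CD mouse, and WD replicate 3 was the highest. Saa2 (3.19 ± 0.82, adjusted p = 0.00276) and Orm3 (1.46 ± 0.35, adjusted p = 0.00128) are close paralogs of these and may share reads. The metallothioneins Mt1, at 10 to 76.5 CPM (median 40.3) on CD and 107 to 325 CPM (median 157) on WD (2.29 ± 0.52, adjusted p = 0.0006), and Mt2 (3.15 ± 0.72, adjusted p = 0.000687) rose as well. The STAT motif TTCNNNGAA was present in 6 of 23 acute phase promoters (26.1%) and in 9.55% of all genes. Its share in the other lists ran from 0% (lipid droplet genes among them) to 30% (bile acid genes), and it was 28.6% for interferon-stimulated genes. The share was therefore not particular to the acute phase list.

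Of 31 cytochrome P450 genes and their regulators, 7 were upregulated and 2 were downregulated (22.6% and 6.45%, against 10.2% and 7.77% of all genes; median 0.46), and over the other fits 4 to 12 rose. Cyp3a11, the main CYP3A enzyme of mouse liver, was at 501 to 1050 CPM (median 640.4) on CD and 1714 to 3076 CPM (median 2217) on WD (log2 fold change 1.73 ± 0.25, adjusted p = 1.69e-07). Cyp2c38 was at 5.25 to 15.8 CPM (median 11.5) on CD and 32.3 to 102 CPM (median 73.3) on WD (2.83 ± 0.39, adjusted p = 3.82e-08), and Cyp2c39, an adjacent retinoic acid hydroxylase, at 6.47 to 22 CPM (median 13.1) and 36.9 to 106 CPM (median 78.9) (2.53 ± 0.49, adjusted p = 6.00e-05). These 3 were separate between diets, and the Cyp2c genes are similar enough to share reads. Cyp2f2, an enzyme of periportal hepatocytes, fell (-0.59 ± 0.18, adjusted p = 0.0112). Cyp2b10, the classical target of CAR, was at 0.0884 to 0.359 CPM (median 0.186) on CD and 0.181 to 2.64 CPM (median 0.508) on WD and did not pass (1.48 ± 0.94, adjusted p = 0.306), nor did the receptor genes Nr1i2 (-0.09 ± 0.16, adjusted p = 0.781) and Nr1i3 (0.16 ± 0.28, adjusted p = 0.766), which encode PXR and CAR.

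Of 21 targets of NRF2, the transcription factor of the oxidant response, 9 rose and 1 fell (42.9% and 4.76%, against 10.2% and 7.77% of all genes; 6 and 0 without both mice with pancreatic transcripts), and 3 to 9 rose over the other fits. Of 34 conjugation genes, 9 rose and 2 fell (26.5% and 5.88%), but without both mice 5 rose, and over the other fits 2 to 15 rose. Sult1b1, a sulfotransferase, was at 26.8 to 32.1 CPM (median 29.6) on CD and 54.5 to 67.7 CPM (median 63.9) on WD (log2 fold change 1.05 ± 0.16, adjusted p = 4.40e-07). Ephx1, microsomal epoxide hydrolase, was at 153 to 211 CPM (median 168) on CD and 326 to 533 CPM (median 405) on WD (1.32 ± 0.15, adjusted p = 4.60e-11). Aox1 (0.85 ± 0.16, adjusted p = 1.94e-05), Srxn1 (0.68 ± 0.17, adjusted p = 0.00239) and Nqo1, the reference target of NRF2 (0.91 ± 0.27, adjusted p = 0.01), rose without overlap between diets. Gclc, which limits glutathione synthesis (0.15 ± 0.14, adjusted p = 0.526), and Hmox1 (-0.27 ± 0.20, adjusted p = 0.386) did not pass. Gstp1, a glutathione transferase higher in males, was at 1024 to 1262 CPM (median 1221) on CD and 476 to 818 CPM (median 621) on WD (-0.94 ± 0.27, adjusted p = 0.00848). Sult1e1, the oestrogen sulfotransferase, was near 0 on CD, at 0.0442 to 0.314 CPM (median 0.131), and at 0.449 to 8.1 CPM (median 1.89) on WD (3.79 ± 1.00, adjusted p = 0.00392).

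Many liver genes differ between males and females under the pattern of growth hormone secretion. Of 24 male-biased genes, 3 fell and none rose (12.5% down, against 7.77% of all genes; median -0.43; 20 of 24 below 0). This count depended on the fit: 3 to 16 fell over the other fits, the most with the 13 DBA/2J mice fitted alone with cohort, and 9 of the 24 were lower on WD without overlap, against 2.6% of all genes. Of 26 female-biased genes, 4 rose and none fell (15.4% up, against 10.2%; median 0.67; 17 of 26 above 0). Over the other fits 1 to 9 rose, and 6 were higher on WD without overlap, against 4.68% of all genes. The male-biased genes that fell were Gstp1, Susd4, a complement regulator, and Cspg5. Susd4 was at 31 to 37.4 CPM (median 31.7) on CD and 4.53 to 12.3 CPM (median 7.02) on WD (log2 fold change -2.21 ± 0.41, adjusted p = 2.57e-05), and Cspg5 at 4.78 to 11.2 CPM (median 9.02) and 1.04 to 3.59 CPM (median 2.12) (-1.93 ± 0.24, adjusted p = 1.07e-09), both without overlap. Among the female-biased genes, Slc22a27, an anion transporter, was near 0 on CD, at 0 to 0.157 CPM (median 0.0779), and at 0.757 to 3.14 CPM (median 2.03) on WD (4.66 ± 1.47, adjusted p = 0.0173). Elovl3, a male-biased elongase, was at 366 to 758 CPM (median 431) on CD and 95 to 223 CPM (median 159) on WD, without overlap, and did not pass (-1.60 ± 0.61, adjusted p = 0.0546). It overlaps Pitx3, which fell (-2.15 ± 0.59, adjusted p = 0.00575), on the opposite strand. Socs2, a direct growth hormone target, did not pass (-0.42 ± 0.39, adjusted p = 0.523).

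Clock genes changed in both directions. Of 19 members, 4 rose and 5 fell (21.1% and 26.3%, against 10.2% and 7.77% of all genes), none of them without overlap between diets, and over the other fits 2 to 9 rose and 2 to 5 fell. Arntl, which encodes BMAL1, was at 7.74 to 34.6 CPM (median 11.1) on CD and 1.89 to 12.2 CPM (median 4.24) on WD (log2 fold change -1.59 ± 0.44, adjusted p = 0.00604). Npas2, a partner of BMAL1, fell (-1.90 ± 0.56, adjusted p = 0.00986), and its call was lost without CD replicate 1 (adjusted p = 0.0582). Clock (-0.51 ± 0.14, adjusted p = 0.00693) and Nfil3 (-0.78 ± 0.21, adjusted p = 0.0042) fell with them. Per2, a repressor of BMAL1, was at 18.1 to 30.7 CPM (median 25.2) on CD and 26.4 to 52 CPM (median 49.5) on WD (0.88 ± 0.22, adjusted p = 0.00193), and Ciart, another repressor, was at 0.971 to 2.98 CPM (median 1.57) on CD and 2.95 to 14.1 CPM (median 9.46) on WD (2.31 ± 0.57, adjusted p = 0.00175). CD replicate 1 had 34.6 CPM of Arntl, against 7.74 to 16.0 CPM in the other 5 CD mice. The hour of killing of each mouse was not used here, and its part in these values was not tested. Dbp (0.85 ± 0.43, adjusted p = 0.177) and Nr1d1 (-0.35 ± 0.38, adjusted p = 0.606) did not pass.

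**Figure D3:**
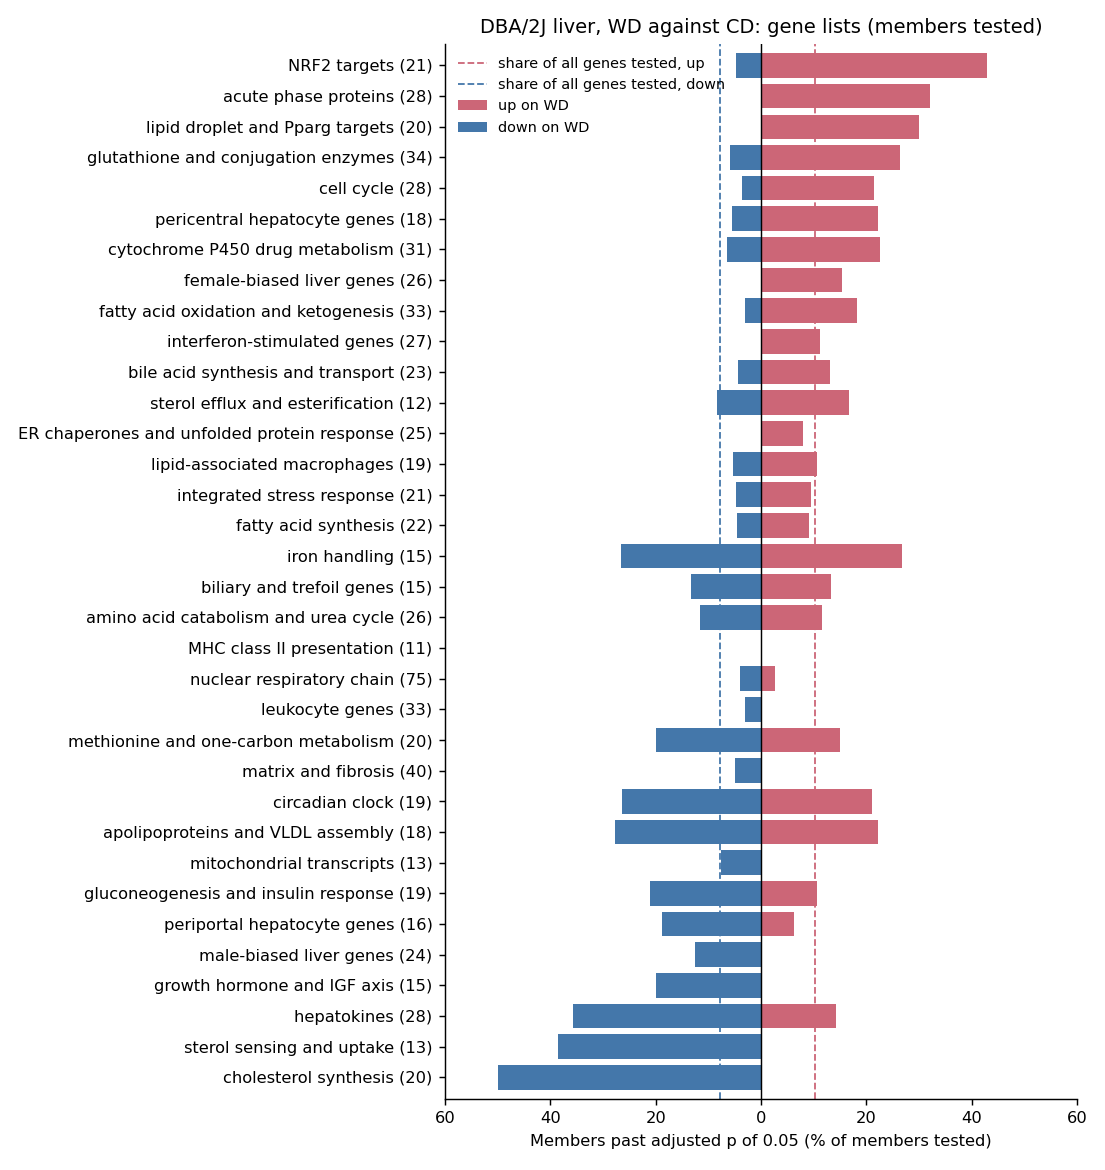
Share of the tested members of each of 34 gene lists that were upregulated (red, to the right) or downregulated (blue, to the left) by WD in DBA/2J liver at an adjusted p below 0.05, with the number tested in parentheses. Dashed lines mark the shares among all 19110 genes, 10.2% up and 7.77% down; NRF2 targets lead the upregulated side and cholesterol synthesis the downregulated side.

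No gene of the leukocyte, MHC class II or matrix lists was upregulated, against 10.2% of all genes, whereas 9 of the 28 acute phase genes were (above). Of 33 leukocyte genes, none was upregulated and 1 was downregulated (3.03% against 7.77% of all genes; median -0.11), none of 11 genes of MHC class II presentation passed (median -0.21, all 11 below 0), and of 40 matrix and fibrosis genes none rose and 2 fell (5%; median 0.03). These counts came from limma-voom; over the other fits the number of leukocyte genes up was 0 to 1, of MHC class II genes up 0, and of matrix genes up 0 to 6. Ptprc, the pan-leukocyte antigen CD45, was at 11.6 to 15.6 CPM (median 13.8) on CD and 10.1 to 16.6 CPM (median 11.9) on WD (log2 fold change -0.11 ± 0.18, adjusted p = 0.761). Ccl2, the chemokine that draws monocytes, was at 0.515 to 0.942 CPM (median 0.789) on CD and 0.695 to 2.16 CPM (median 1.59) on WD (0.80 ± 0.39, adjusted p = 0.153). Ccl6, a chemokine of myeloid cells, fell (-0.61 ± 0.21, adjusted p = 0.0292), but not without any one of CD replicates 3 or 5 or WD replicates 2, 4 or 6 (adjusted p 0.0516 to 0.0786). Col1a1, the main fibrillar collagen, was at 3.45 to 4.43 CPM (median 3.92) on CD and 4.61 to 8.18 CPM (median 6.51) on WD, without overlap, and did not pass in the fit of all mice (0.66 ± 0.60, adjusted p = 0.514). That fit shares 1 estimate of the spread over all strains. The standard deviation of Col1a1 was 0.37 CPM on CD and 1.11 CPM on WD in DBA/2J, and 0.271 to 48.7 CPM in the groups of other strains. The part of this spread in the missing call was not tested. Col3a1 did not pass either (0.41 ± 0.32, adjusted p = 0.432), and Mmp14, a membrane-bound matrix protease, fell (-0.59 ± 0.14, adjusted p = 0.00159). Of 19 genes of lipid-associated macrophages, 2 rose and 1 fell, and the 2 that rose, Cd36 (above) and Lgals1 (1.63 ± 0.32, adjusted p = 8.63e-05), are also expressed outside macrophages. Trem2, the receptor that defines these macrophages, was below 1 CPM in every mouse (0.93 ± 0.81, adjusted p = 0.494). Fabp5, a fatty acid binding protein, was at 23.2 to 74.3 CPM (median 43.4) on CD and 3.79 to 18.5 CPM (median 8.12) on WD (-2.48 ± 0.38, adjusted p = 5.18e-07).

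Of 27 interferon-stimulated genes, 3 rose and none fell (11.1% up, close to the 10.2% of all genes), led by Ifi27l2b, at 3.94 to 8.01 CPM (median 4.86) on CD and 21.8 to 30.6 CPM (median 27.2) on WD (log2 fold change 2.40 ± 0.34, adjusted p = 5.39e-08). Of 28 cell cycle genes, 6 rose and 1 fell (21.4% and 3.57%, against 10.2% and 7.77% of all genes; 4 and 0 without both mice). The number that rose was 3 to 6 when single mice were left out, at its lowest near the background, and 2 to 10 over the other fits. E2f1, which drives entry into S phase, was at 2.23 to 3.49 CPM (median 2.97) on CD and 5.77 to 7.36 CPM (median 6.19) on WD (1.14 ± 0.16, adjusted p = 2.22e-08), and Ccne2, a cyclin of the same step, at 1.16 to 2.06 CPM (median 1.48) and 2.55 to 3.84 CPM (median 3.1) (1.00 ± 0.18, adjusted p = 2.62e-05). Both were separate, while Mki67, a marker of dividing cells, did not pass (0.21 ± 0.44, adjusted p = 0.813). In the integrated stress response 2 of 21 genes rose and 1 fell: Chac1, a glutathione-degrading enzyme, rose (1.11 ± 0.29, adjusted p = 0.00352), and Atf4, the transcription factor of the response, was lower in every WD mouse than in any CD mouse (-0.56 ± 0.10, adjusted p = 2.89e-05). Hspa5, the main chaperone of the endoplasmic reticulum, did not pass (0.17 ± 0.24, adjusted p = 0.713). Of 75 nuclear genes of the respiratory chain, 2 rose and 3 fell, and of 13 mitochondrial transcripts 1 fell.

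Along the lobule, 4 of 18 pericentral genes rose and 1 fell (22.2% and 5.56%, against 10.2% and 7.77% of all genes). Of 16 periportal genes, 1 rose and 3 fell (6.25% and 18.8%), and over the other fits 1 to 8 fell. Slc13a3, a dicarboxylate transporter of pericentral cells, was at 7.86 to 14.7 CPM (median 12) on CD and 33.6 to 49.7 CPM (median 40.2) on WD (log2 fold change 1.75 ± 0.24, adjusted p = 3.83e-08). Cdh1, E-cadherin, a junction protein of periportal hepatocytes and bile ducts (ENSMUSG00000000303, chromosome 8, 106603351 to 106670246, plus strand), was at 34.6 to 66.1 CPM (median 51.7) on CD and 4.53 to 10.4 CPM (median 5.8) on WD (-2.95 ± 0.32, adjusted p = 1.80e-11). Both were separate between diets. Glul, glutamine synthetase of the last pericentral layer, did not pass (0.19 ± 0.20, adjusted p = 0.592). Among 15 biliary and trefoil genes, Krt8, a keratin that hepatocytes also express, was at 72.8 to 124 CPM (median 99.2) on CD and 173 to 199 CPM (median 193) on WD (0.96 ± 0.16, adjusted p = 1.97e-06). Tff3, a trefoil peptide, had the largest decrease of the named genes: it was at 16 to 41.9 CPM (median 20) on CD and 0.239 to 0.947 CPM (median 0.381) on WD (-5.58 ± 0.65, adjusted p = 1.89e-10), and the CD mouse with the least Tff3 was still far above the WD mouse with the most. Krt19, the duct keratin, did not pass (0.18 ± 0.50, adjusted p = 0.868). Of 26 genes of amino acid catabolism and the urea cycle, 3 rose and 3 fell, and of 20 genes of one-carbon metabolism 3 rose and 4 fell, with Gnmt, which consumes S-adenosylmethionine, at 837 to 1059 CPM (median 923) on CD and 478 to 789.6 CPM (median 676) on WD (-0.53 ± 0.12, adjusted p = 0.00078).

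Several of the largest changes lay outside these lists. Ildr2, a membrane protein of hepatic lipid homeostasis, was at 0.538 to 2.38 CPM (median 1.69) on CD and 14.2 to 24.6 CPM (median 17.8) on WD (log2 fold change 3.66 ± 0.37, adjusted p = 1.12e-12). Sema5b (3.77 ± 0.55, adjusted p = 1.10e-07), Pls1, an actin-bundling protein (2.98 ± 0.34, adjusted p = 7.68e-11), and Smpd3, a neutral sphingomyelinase (2.68 ± 0.34, adjusted p = 4.26e-09), rose without overlap. Moxd1, a monooxygenase-like protein, was at 7.62 to 204 CPM (median 79.1) on CD and 0.214 to 40.8 CPM (median 3.51) on WD, with a wide spread on both diets (-4.29 ± 0.62, adjusted p = 9.89e-08). Smad9, a transducer of BMP signals (-2.07 ± 0.36, adjusted p = 9.42e-06), Adgrf1, an adhesion receptor (-2.28 ± 0.34, adjusted p = 3.04e-07), and Grm8, a glutamate receptor (-2.10 ± 0.30, adjusted p = 8.97e-08), fell without overlap.

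To ask where DBA/2J responded unlike other backgrounds, its diet effect was compared with the mean diet effect of the other 6 strains by a contrast in the same fit. The effect was higher in DBA/2J for 742 genes (3.88%) and lower for 743 genes (3.89%). Cholesterol synthesis was the list with the most differences of one sign upward: 11 of 20 enzymes had a higher, that is less negative, effect in DBA/2J and none a lower one (7 without both mice with pancreatic transcripts). The number of enzymes downregulated was 10 in DBA/2J and 15 to 20 in the other strains, whose shares of all genes called are not given here. Msmo1, a sterol methyl oxidase, changed by -0.63 in DBA/2J, where it did not pass (adjusted p = 0.096), and by -2.17 on average elsewhere (difference 1.54 ± 0.30, adjusted p = 0.00033). It changed by -1.33 in 129S1/SvImJ, -1.40 in A/J and -2.33 to -2.88 in the rest. Idi1 (difference 1.46 ± 0.34, adjusted p = 0.00366) and Cyp51 (difference 1.18 ± 0.23, adjusted p = 0.000335) differed as well. Cyp51 changed by -1.21 in DBA/2J, -1.48 in 129S1/SvImJ and -2.24 to -3.04 in the rest. The mean Idi1 level on WD was 7.57 CPM in DBA/2J and 5.1 CPM in C57BL/6J, from 20.4 and 47.8 CPM on CD. Sqle, the enzyme with the largest decrease in DBA/2J, did not differ past the threshold (difference 0.17 ± 0.38, adjusted p = 0.855).

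The leukocyte list differed the other way. The effect was lower in DBA/2J for 24 of 33 leukocyte genes and higher for none (15 to 24 when single mice were left out, 18 without both mice), against 3.89% of all genes. It was lower for 8 of 11 MHC class II genes, 10 of 40 matrix genes and 7 of 19 genes of lipid-associated macrophages (5, 4 and 5 without both mice). MHC class II genes upregulated numbered 0 in DBA/2J, A/J and CAST/EiJ, 3 in WSB/EiJ, 4 in PWK/PhJ, 8 in C57BL/6J and 10 in 129S1/SvImJ. For matrix genes these strains, in the same order, had 0, 4, 1, 2, 32, 27 and 22. For lipid-associated macrophages they had 2, 8, 1, 6, 17, 16 and 17. The number of leukocyte genes upregulated was 0 for DBA/2J, 3 for A/J, 4 for CAST/EiJ, 8 for WSB/EiJ and 27 for PWK/PhJ, and it was 31 for both C57BL/6J and 129S1/SvImJ. The share of all genes called in each of the other strains, against which these counts would be read, is not given here. Ptprc changed by -0.11 in DBA/2J and by 0.69 on average elsewhere (difference -0.80 ± 0.20, adjusted p = 0.00648). It was at 0.12 in CAST/EiJ and 0.28 in A/J without passing, and rose by 0.74 to 1.30 in the rest. Ccl2 (difference -1.69 ± 0.43, adjusted p = 0.00718), Ccl6 (difference -1.24 ± 0.24, adjusted p = 0.000315) and Col3a1 (difference -1.31 ± 0.35, adjusted p = 0.0127) differed likewise. Ccl2 rose past the threshold in every other strain. Ccl6 did not pass in A/J (-0.01), CAST/EiJ (0.14) or WSB/EiJ (0.45), nor Col3a1 in CAST/EiJ (0.72) or WSB/EiJ (0.99), and both rose in the rest. Lpl, lipoprotein lipase, was at 47.6 to 124 CPM (median 83.2) on CD and 26.9 to 61.5 CPM (median 47.9) on WD in DBA/2J. It did not pass there (-0.81, adjusted p = 0.0697), but its effect differed from the mean elsewhere (difference -1.90 ± 0.35, adjusted p = 0.000198). Lpl rose past the threshold in PWK/PhJ (2.64), 129S1/SvImJ (1.08) and C57BL/6J (0.84), and did not pass in the remaining strains. Cd207, langerin, a lectin of dendritic and some resident macrophage populations, fell in DBA/2J (-1.14 ± 0.21, adjusted p = 2.98e-05) and changed by 0.73 on average elsewhere (difference -1.87 ± 0.25, adjusted p = 9.94e-08). Among the other strains it also fell in WSB/EiJ (log2 fold change -0.89, adjusted p = 0.0461), was at -0.39 in CAST/EiJ without passing, and was highest in 129S1/SvImJ at 2.46. For the acute phase list, by contrast, the effect was lower in 2 of 28 genes and higher in none, and Lcn2 did not differ past the threshold (difference 1.22 ± 0.72, adjusted p = 0.331).

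**Figure D4:**
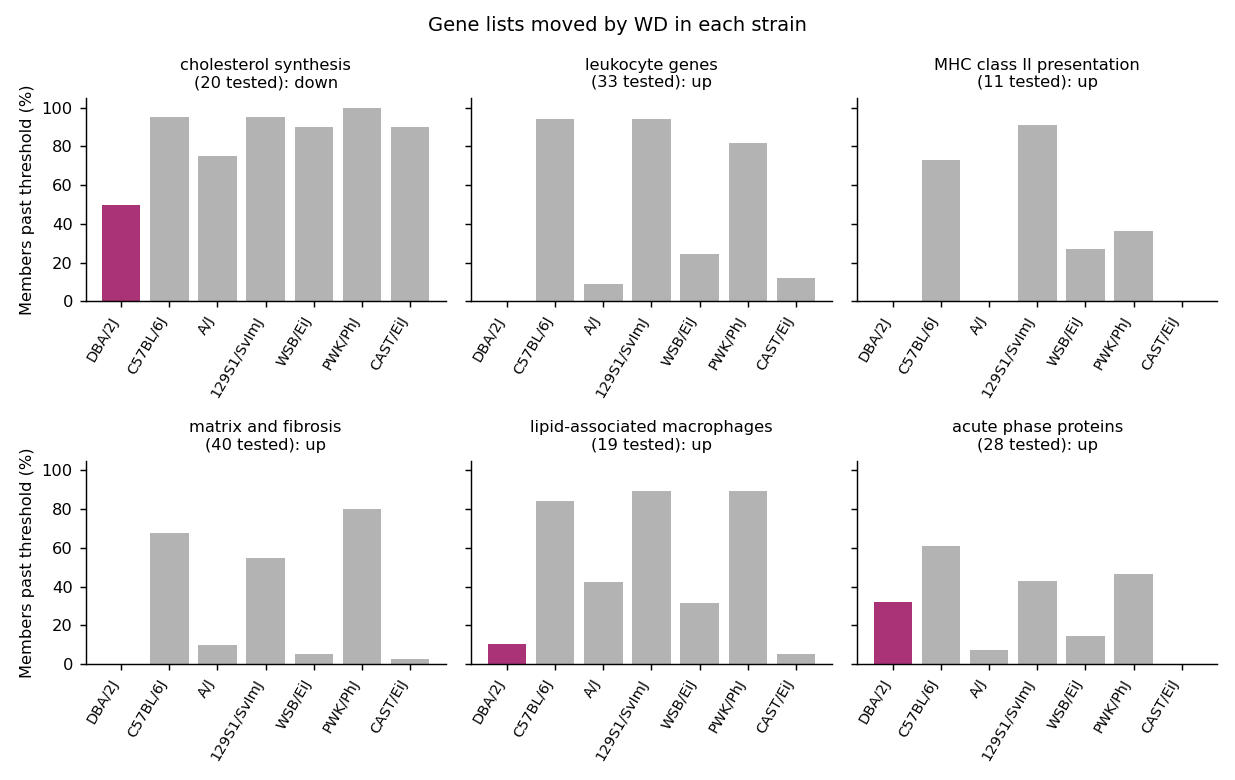
Percentage of tested list members past an adjusted p of 0.05 in the direction named above each panel, for each strain (purple, DBA/2J; grey, the other 6). DBA/2J has no bar for leukocyte, MHC class II and matrix genes, where the share is 0, and its share of downregulated cholesterol synthesis enzymes is 50%. A/J and CAST/EiJ have no bar for MHC class II genes either. The share of all genes called in each strain is not drawn.

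The P450 genes Cyp2c38 and Cyp2c39 rose in DBA/2J and changed by -0.03 and -0.29 on average elsewhere; the difference was 2.85 for Cyp2c38 (adjusted p = 7.42e-06) and 2.81 for Cyp2c39 (adjusted p = 0.000297). These averages joined unlike strains: Cyp2c38 also rose in 129S1/SvImJ (log2 fold change 0.88, adjusted p = 0.0388), and Cyp2c39 fell in PWK/PhJ (log2 fold change -1.67, adjusted p = 0.00204). On CD, the mean Cyp2c38 level was 10.9 CPM in DBA/2J and 89 CPM in C57BL/6J, and on WD 72.4 and 99.2 CPM. Ildr2 (difference 3.07 ± 0.38, adjusted p = 8.84e-09), Fitm1 (difference 2.12 ± 0.60, adjusted p = 0.0173) and Rad51b, a recombination factor (difference 2.22 ± 0.58, adjusted p = 0.00853), rose more in DBA/2J than on average elsewhere. Fitm1 also rose past the threshold in 129S1/SvImJ (2.89), PWK/PhJ (2.68), C57BL/6J (2.12), A/J (1.59) and WSB/EiJ (1.21), and was at -0.48 in CAST/EiJ without passing. Its mean level on WD was 17.4 CPM in DBA/2J and 29.9 CPM in C57BL/6J. Cdh1 fell more (difference -2.81 ± 0.35, adjusted p = 1.01e-08), with log2 fold changes of -1.13 in C57BL/6J and 0.86 in PWK/PhJ. Tff3 changed by -1.93 on average elsewhere (difference -3.64 ± 0.72, adjusted p = 0.000487). Moxd1 had the largest negative difference (difference -5.39 ± 1.05, adjusted p = 0.000368); its mean level on CD was 95.4 CPM in DBA/2J, 925 CPM in CAST/EiJ and below 1 CPM in the other 5 strains. Cib3, a calcium-binding protein, fell in DBA/2J (-2.09 ± 0.41, adjusted p = 6.73e-05) and changed by 1.19 on average elsewhere (difference -3.29 ± 0.54, adjusted p = 1.65e-05), but it also fell in C57BL/6J (a change of -1.42 on the log2 scale, with an adjusted p of 0.000149) and rose in PWK/PhJ (2.69), A/J (2.24) and 129S1/SvImJ (1.65). Mup9, a major urinary protein with near-identical copies that may share reads, also differed (difference -2.42 ± 0.42, adjusted p = 5.83e-05). It fell in DBA/2J (-1.06, adjusted p = 0.00784), but not past the threshold without CD replicate 5 (adjusted p = 0.0538). Its mean level on CD was 114 CPM in DBA/2J and 0.168 (C57BL/6J) to 19.5 CPM (129S1/SvImJ) elsewhere. It rose past the threshold in PWK/PhJ (2.62), WSB/EiJ (2.35) and 129S1/SvImJ (0.88), and was at -0.84 in A/J without passing.

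**Figure D5:**
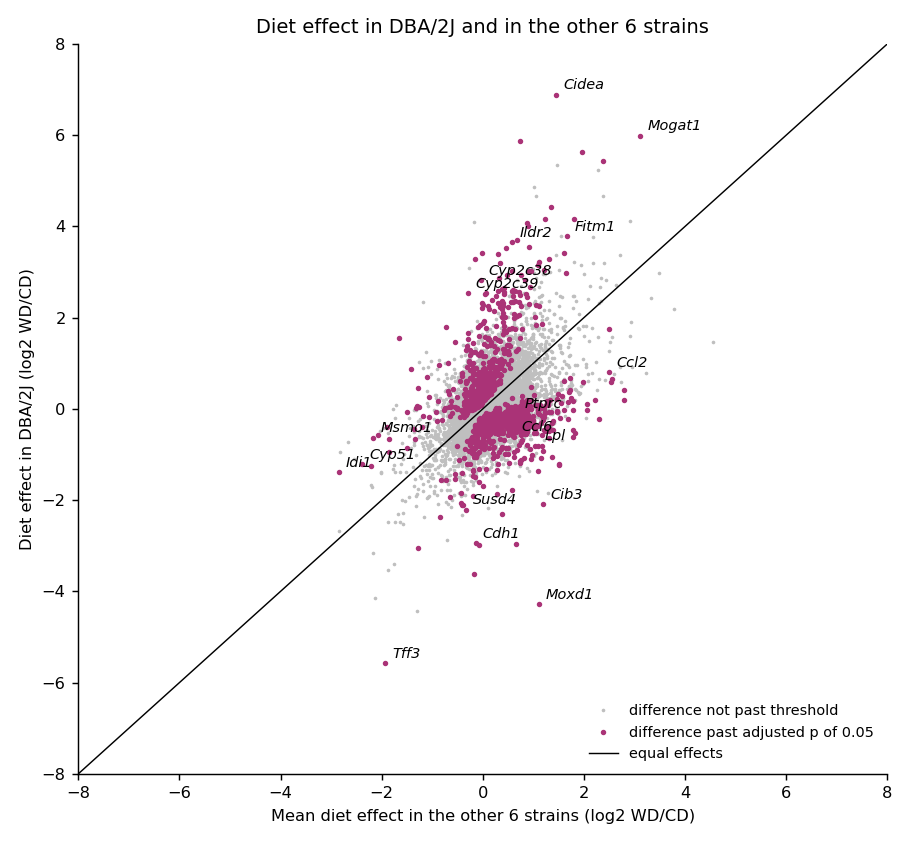
Log2 fold change (WD over CD) of each of the 19110 genes in DBA/2J (vertical axis) against the mean of the other 6 strains (horizontal axis). Purple points are the 742 and 743 genes whose effects differ at an adjusted p below 0.05, and the line marks equal effects; cholesterol synthesis enzymes such as Idi1 lie above the line on the left, and Tff3, Cdh1 and Moxd1 far below it.

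Against C57BL/6J alone, the effect was higher in DBA/2J for 524 genes (2.74%) and lower for 597 genes (3.12%). Cyp7a1 rose in DBA/2J and changed by -0.26 in C57BL/6J (difference 2.75 ± 0.74, adjusted p = 0.0136). It also rose past the threshold in CAST/EiJ (2.78) and A/J (1.87), and did not pass in the remaining strains. Cyp3a11 rose in DBA/2J and changed by 0.18 in C57BL/6J (difference 1.55 ± 0.35, adjusted p = 0.00332), where its mean level on CD was 3319 CPM against 713 CPM in DBA/2J. It also rose past the threshold in CAST/EiJ (3.32), 129S1/SvImJ (2.60), WSB/EiJ (2.46) and A/J (1.11), and was at -0.10 in PWK/PhJ without passing. Ephx1 (difference 1.22 ± 0.20, adjusted p = 3.00e-05) and Pparg (difference 2.19 ± 0.48, adjusted p = 0.00202) also rose more in DBA/2J, from lower levels on CD. Among the other strains, Ephx1 passed upward in all but C57BL/6J (0.57 to 1.09, against 0.10 in C57BL/6J). Pparg passed upward in PWK/PhJ (3.46), 129S1/SvImJ (2.58), A/J (2.31) and C57BL/6J (1.03), and not in CAST/EiJ (0.48) or WSB/EiJ (0.99). The mean Ephx1 level was 173 CPM on CD and 436 CPM on WD in DBA/2J, and 425 and 458 CPM in C57BL/6J. That of Pparg was 1.38 CPM on CD and 13.1 CPM on WD in DBA/2J, and 10.4 and 22.6 CPM in C57BL/6J. Orm3 rose less (difference -4.16 ± 0.89, adjusted p = 0.00171), from a mean of 15.4 CPM on CD in DBA/2J and of 0.397 CPM in C57BL/6J. Wdr86, a WD-repeat protein, was at 1.59 to 3.98 CPM (median 2.86) on CD and 7.5 to 13.3 CPM (median 9.88) on WD in DBA/2J and changed by -0.66 in C57BL/6J (difference 2.60 ± 0.41, adjusted p = 1.46e-05). Cidea rose in both strains, and its effects did not differ past the threshold (difference 0.53 ± 1.58, adjusted p = 0.907).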

How the data were processed

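Liver RNA of 93 male mice was prepared with the SMARTER mRNA-Seq kit and sequenced on a BGISEQ-500. The authors aligned the reads with STAR 2.7.1a to GRCm38/mm10, per the submitters' processing notes, and deposited raw counts per gene, 1 column per mouse; the strand setting of the counting was not given in the sources used here. Of the reads of each DBA/2J mouse, 4 summary lines (unmapped, multimapping, no feature, ambiguous), among them 4.01 to 7.07% unmapped and 9.04 to 10.1% multimapping, were left out, and 43304796 to 47811116 remained on genes, so that counting error was small except near 0 CPM. There were 0 columns of other series.

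Genes were filtered with filterByExpr (count minimum 10), scaled by TMM and tested with limma-voom (limma 3.58.1, edgeR 4.0.16, R 4.3.3) in 1 fit of 14 strain-by-diet means, with Benjamini-Hochberg adjustment over 19110 genes and a threshold of 0.05. Contrasts were WD minus CD in DBA/2J, and the difference of that effect from the mean of the other 6 strains and from C57BL/6J. CPM values use TMM-scaled library sizes. The scripts were tested on simulated counts. Each library was a separate mouse, and no 2 DBA/2J libraries agreed within counting noise (chi-square per degree of freedom 26.69 to 152.3). Alternatives were the edgeR quasi-likelihood test, DESeq2 1.42.0, other filters and scaling, cohort or RIN as covariate, sample weights, DBA/2J alone, each cohort alone and leaving out each mouse.

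The members and lists were chosen with earlier results of these data known. Named genes were, by rule, the 15 largest changes each way without overlap between diets, key members and up to 4 changed members each way of 34 lists, and the 10 largest differences each way from the other 6 strains (5 from C57BL/6J). The 27 named genes outside the rule, mainly cell markers, further cholesterol synthesis enzymes, Plin4, Acadm, Inhba, Enho and Mt1, were chosen after their values were seen. Some genes are not reported here.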

Additional observations from a re-analysis of the deposited data

Results flagged for a closer look

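Single mice stood far from the rest of their diet group for some genes, by a test that chance alone passes in about 1 of 20 groups. WD replicate 5 was the highest WD mouse for the sterol genes Idi1 (12.05 CPM), Cyp51 (67.22 CPM) and Lss (37.42 CPM), and also for Moxd1 (40.83 CPM) and Hamp2 (75.03 CPM). Replicates numbered 1 stood apart for clock genes: CD replicate 1 had 34.61 CPM of Arntl and 13.96 CPM of Npas2, and WD replicate 1 had 12.18 CPM of Arntl, 4.636 CPM of Npas2, 21.47 CPM of Nfil3 and, below the other WD mice, 26.36 CPM of Per2. CD replicate 1 was also highest for Elovl3 (757.9 CPM) and, near 0, for Ngp (0.224 CPM), and WD replicate 1 for Cyp4a32 (176.7 CPM). WD replicate 3 was the highest for the acute phase genes Lcn2 (320.8 CPM) and Orm2 (148.7 CPM), for Ngp (2.418 CPM) and for the summed neutrophil markers (14.59 CPM).

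CD replicate 5 was the highest CD mouse for Saa2 (50.71 CPM) and Ifi27l2b (8.007 CPM), and CD replicate 4 for Mki67 (4.52 CPM). WD replicate 4 was the highest WD mouse for Nr1i2 (68.51 CPM) and Igfbp2 (191.9 CPM), and WD replicate 6 for Cyp2b10 (2.643 CPM). The summed acinar markers stood at 1407 CPM in CD replicate 2, with 159 CPM of Cela1, and at 88.29 CPM in WD replicate 2. CD replicate 2 was also the lowest CD mouse for Kdr (61.22 CPM), and WD replicate 2 had the highest red blood cell sum (373.3 CPM). Values of 1 to 5 reads set apart Lep in CD replicate 3 (0.1105 CPM), Ly6g in CD replicate 2 (0.02192 CPM) and Cdx2 in WD replicate 2 (0.02117 CPM).

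Relative to the average of the other backgrounds, the diet effect of DBA/2J was higher, by the limma-voom contrast on the log2 scale, for Msmo1 (1.539), Idi1 (1.459), Cyp51 (1.183), Cyp2c38 (2.853), Cyp2c39 (2.815), Ildr2 (3.074), Fitm1 (2.12) and Rad51b (2.221). It was lower for Ptprc (-0.799), Ccl2 (-1.689), Ccl6 (-1.237), Col3a1 (-1.305), Lpl (-1.9), Cd207 (-1.866), Cdh1 (-2.806), Tff3 (-3.644), Moxd1 (-5.393), Cib3 (-3.285) and Mup9 (-2.42). From C57BL/6J alone it differed for Cyp7a1 (2.754), Cyp3a11 (1.55), Ephx1 (1.219), Pparg (2.186), Wdr86 (2.6) and Orm3 (-4.156).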

How the results depend on the processing

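The numbers of DEGs on WD stayed within 1.5 times of 1958 up and 1484 down in every alternative but the single cohorts: they were 1258 and 943 in cohort 4 and 787 and 468 in cohort 5, each with fewer mice. Without each mouse in turn they were 1576 to 1985 up and 1090 to 1456 down, and 2088 of the 3442 DEGs were called without every mouse in turn. The numbers of genes that differed from the other 6 strains were 509 to 783 higher and 487 to 822 lower without each mouse in turn (the higher count lowest without CD replicate 2, the lower without CD replicate 4), and from C57BL/6J 370 to 564 and 457 to 614. With sample quality weights, 1315 genes were lower than in the other 6 strains and 1073 lower than in C57BL/6J; the cause was not tested. Without both mice with pancreatic transcripts, an alternative chosen after seeing the data, 484 genes were higher and 460 lower than in the other 6 strains, and 306 higher and 390 lower than in C57BL/6J. Of 108 named genes past the threshold, 99 passed in every other fit of all DBA/2J mice, 98 without each mouse in turn, 82 within cohort 4 and 66 within cohort 5, and none changed direction while past the threshold in either fit. The differences of Col3a1 from the other 6 strains (adjusted p = 0.117) and of Cyp7a1 from C57BL/6J (adjusted p = 0.125) did not pass by limma-voom with no filter on low counts; the other named strain differences past the threshold kept their call in every alternative. No paired analysis was possible because the labels give no replicate numbers, and the numbers here follow the order of deposit. Genes at a few reads per mouse, such as Cidea and Camp on CD, are limited by depth.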
